A study of Mus musculus with 20 samples.

Results

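The lymphotoxin chains Lta and Ltb, their receptor Ltbr, the chemokines Cxcl13, Ccl19, Ccl21a and Cxcl12 and the chemokine receptors Cxcr5, Ccr7 and Cxcr4 build and fill lymphoid follicles, and their RNA was followed here in the terminal ileum of mice fed with or without tryptophan (Trp). These 10 genes were taken by name from a table of estimated counts for 35204 genes. All 10 passed the filter of at least 0.5 counts per 1000000 counts of a library (CPM) in at least 1 mouse and were tested among 16306 genes. The 20 mice were female C57BL/6 mice, with 5 mice in each of 4 groups. Their stated age, 7 weeks, is read as that at the start of 3 weeks of feeding, after which the ileum was taken. Mice of the CD group were fed a defined control diet for 3 weeks, and mice of the TDD group were fed that diet with no Trp added, and both remained specific pathogen-free (SPF). Mice of the CD+ABX and TDD+ABX groups ate the same diets and drank sweetened water with ampicillin, vancomycin, metronidazole, neomycin and gentamycin (ABX). One short piece of whole ileum near the cecum was frozen from each mouse, so epithelium, muscle and any lymphoid tissue in that piece were measured together. In such bulk samples, fewer cells of a type and less RNA per cell cannot be told apart. Nothing in the labels ties mice to cages, so p-values measure only the spread between these mice.

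Lymphotoxin alpha and beta chains form a membrane-bound complex on lymphocytes and on lymphoid tissue inducer (LTi) cells, and this complex signals through the lymphotoxin beta receptor of stromal cells, in part by the non-canonical NF-kB pathway. Stromal cells that receive the signal make the chemokines that sort lymphocytes: Cxcl13 draws Cxcr5-bearing B cells into follicles, Ccl19 and Ccl21 draw Ccr7-bearing T cells and dendritic cells into the adjoining zones, and Cxcl12 holds Cxcr4-bearing cells near its source. In the ileum this circuit is known for building Peyer's patches and isolated lymphoid follicles.

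The members include neighbouring genes. On GRCm38 (GENCODE M21 annotation), Ltb (chromosome 17, 35194439 to 35196320) lies 6.84 kb from Lta (35203165 to 35205351) on the opposite strand, and Ccl19 (chromosome 4, 42754525 to 42756577) lies 16.3 kb from Ccl21a (42772860 to 42773993) on the same strand. Cxcl13 is on chromosome 5 (95956951 to 95961068), Cxcr5 on chromosome 9 (44511787 to 44561877) and Ccr7 on chromosome 11 (99144196 to 99155077). Ltbr (125306571 to 125313885) and Cxcl12 (117168535 to 117181367) are on chromosome 6, and Cxcr4 is on chromosome 1 (128588199 to 128592293). The last 110 bases of Cxcr5 overlap Bcl9l on the opposite strand, and Ccl19 and Ccl21a lie within 4930578G10Rik on the opposite strand. The latter held 0 to 5 counts per mouse, and whether reads were counted by strand is not given in the sources used here.

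RefSeq promoter windows (GRCm38.p6) were found for 8 of the 10 genes, namely all but Cxcr5 and Ccr7. The 250 bases before the start were searched on both strands for an NF-kB pattern, GGG and CC separated by any 5 bases, and for GCGTG, the core of the element bound by the aryl hydrocarbon receptor (AhR), a sensor of Trp metabolites. The NF-kB pattern was found in 6 of these 8 windows (Cxcl13, Lta, Ltb, Ltbr, Ccl19 and Cxcl12), where 45.8% of all 32851 windows held it. GCGTG was found in 3 of 8 (Cxcl13, Ccl19 and Cxcr4), where 28.2% of all windows held it. A match is a description of the letters and not a site. The windows of Cxcl13, Lta, Ltb and Cxcl12 are printed because Cxcl13 and the lymphotoxin chains rose and fell together from mouse to mouse, whereas Cxcl12 had the only adjusted p under 0.05. Each is given 5′ to 3′ in the direction of its gene, without bases of annotated exons, with matches in capitals. They cover chr5:95956689-95956938 (plus strand), chr17:35205352-35205601 (minus strand), chr17:35194257-35194438 (plus strand) and chr6:117168285-117168534 (plus strand).
Cxcl13: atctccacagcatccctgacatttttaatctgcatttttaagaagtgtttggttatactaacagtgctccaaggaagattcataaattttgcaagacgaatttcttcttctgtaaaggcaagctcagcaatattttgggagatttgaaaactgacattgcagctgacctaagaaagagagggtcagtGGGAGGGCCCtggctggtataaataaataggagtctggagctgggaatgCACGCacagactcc
Lta: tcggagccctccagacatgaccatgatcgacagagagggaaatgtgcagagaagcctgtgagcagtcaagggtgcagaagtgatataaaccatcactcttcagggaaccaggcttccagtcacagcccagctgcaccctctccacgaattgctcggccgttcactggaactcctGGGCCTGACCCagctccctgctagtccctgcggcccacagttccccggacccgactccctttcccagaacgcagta
Ltb: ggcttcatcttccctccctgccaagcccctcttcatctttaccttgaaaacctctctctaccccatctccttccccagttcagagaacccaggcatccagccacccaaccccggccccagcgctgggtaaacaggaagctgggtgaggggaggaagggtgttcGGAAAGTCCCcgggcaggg
Cxcl12: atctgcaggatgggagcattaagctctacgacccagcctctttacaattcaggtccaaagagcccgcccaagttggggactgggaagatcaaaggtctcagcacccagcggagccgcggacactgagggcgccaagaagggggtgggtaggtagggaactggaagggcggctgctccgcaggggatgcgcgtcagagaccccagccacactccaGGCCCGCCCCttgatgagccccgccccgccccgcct
The Cxcl13 window holds a match of each pattern, Lta holds 2 overlapping NF-kB matches, and the printed parts of Ltb and Cxcl12 hold 1 each.

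Total estimated counts ranged from 36676963 to 58662617 per mouse, and a count of 0 allows up to 3 counts, or at most 0.0818 CPM, in any mouse (counting error only). All 6 markers of ileal enterocytes were detected and their summed level lay between 4853 and 9638 CPM, but the ileal bile acid transport genes Fabp6 and Slc10a2 were low in SPF mice, at 0.238 to 3.91 and 1.38 to 8.80 CPM, against 2.65 to 144 and 13.2 to 86.1 CPM with ABX. No pair of mice within a group agreed within counting noise.

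The 10 genes fell into 2 patterns, and the first cut across the groups. Cxcl13, Cxcr5, Lta, Ltb, Ccl19, Ccr7 and Cxcr4 were high in CD mice 2 and 3, TDD mice 2, 3, 4 and 5 and TDD+ABX mouse 5, and for each of these 7 genes those were the 7 highest of the 20 mice. CD mice 1, 4 and 5, TDD mouse 1, every CD+ABX mouse and the other TDD+ABX mice were low. Ltbr, Ccl21a and Cxcl12 varied less between mice. Values are CPM after TMM scaling, with mice numbered as in the labels.

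**Figure D1:**
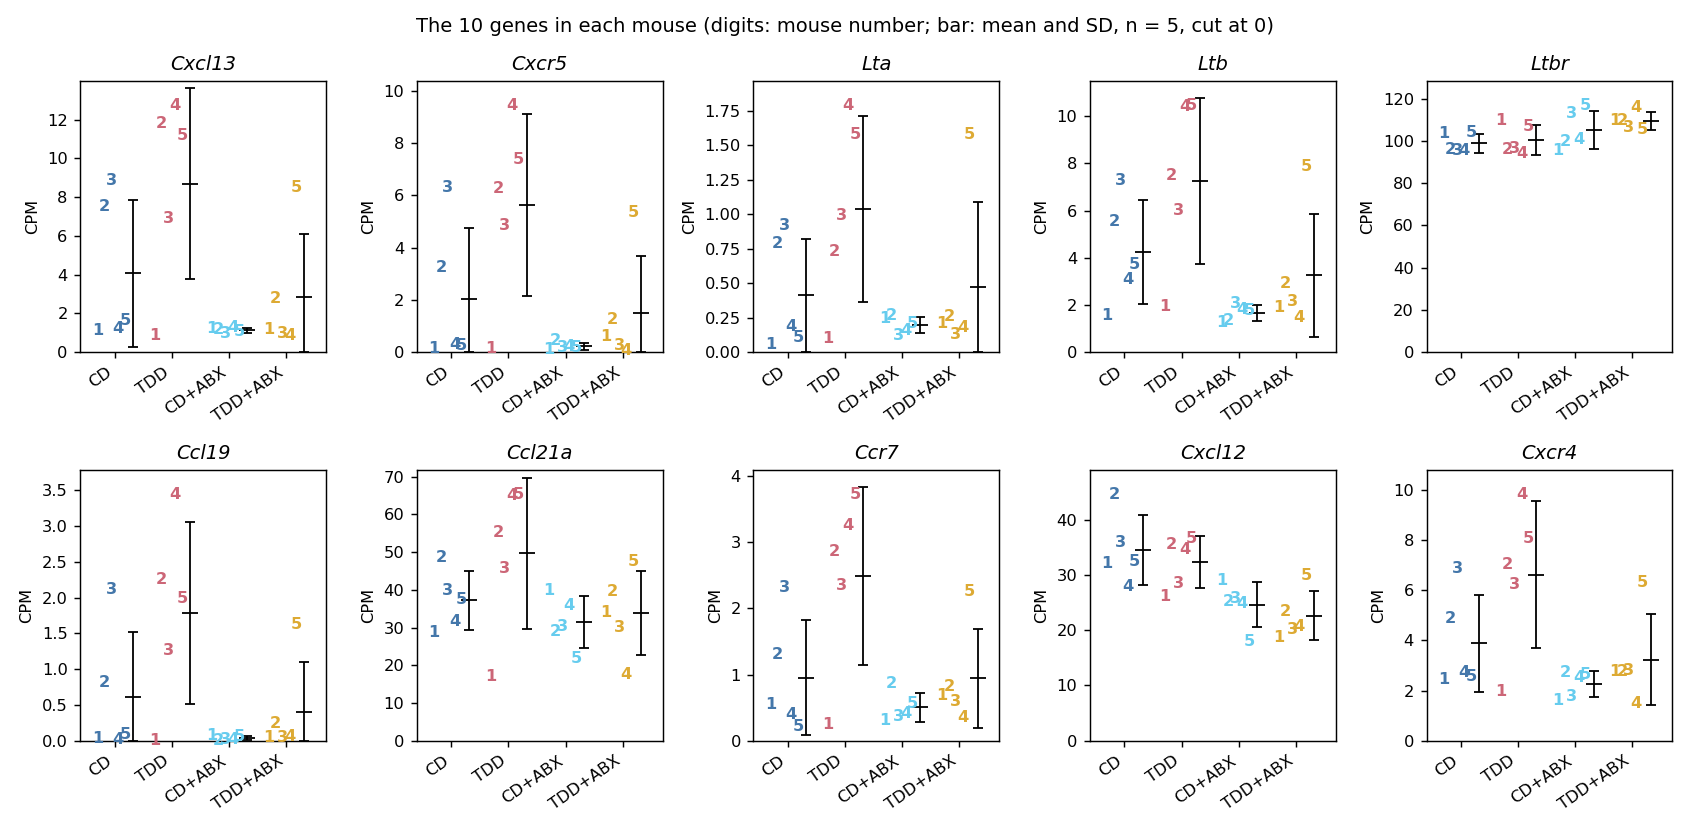
CPM of each of the 10 genes (vertical axes, linear from 0) in the 4 groups (horizontal axes). Digits are the mice by number and the black bars are the mean and SD of 5 mice. In 7 panels CD mice 2 and 3, TDD mice 2 to 5 and TDD+ABX mouse 5 stand above the others, whereas Ltbr lies between 94.2 and 117 CPM in all 20 mice.

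Cxcl13, the B cell attractant of follicles, was at 1.13, 7.51, 8.86, 1.22 and 1.64 CPM in CD mice 1 to 5, and at 0.853, 11.8, 6.88, 12.7 and 11.2 CPM in TDD mice 1 to 5. With ABX it was at 1.19, 1.18, 0.942, 1.27 and 1.04 CPM on CD and at 1.16, 2.78, 0.930, 0.836 and 8.50 CPM on TDD. The 5 CD+ABX mice lay close together, and the lowest TDD mouse lay below all of them. Cxcr5, its receptor on B cells and follicular helper T cells, was at 0.138, 3.23, 6.30, 0.298 and 0.232 CPM in CD mice and at 0.151, 6.28, 4.85, 9.44 and 7.38 CPM in TDD mice. It was at 0.110, 0.432, 0.164, 0.195 and 0.170 CPM in CD+ABX mice and at 0.599, 1.24, 0.248, 0.0597 and 5.34 CPM in TDD+ABX mice. The receptor was high in the same mice as its ligand, and TDD+ABX mouse 2 was intermediate for both. Over the 20 mice, after subtracting group means from log2(CPM + 0.5), Pearson's r between ligand and receptor was 0.98, in values that share library and depth.

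Lta, the soluble and membrane lymphotoxin alpha chain, was at 0.0551, 0.791, 0.918, 0.184 and 0.105 CPM in CD mice and at 0.1, 0.733, 0.994, 1.79 and 1.58 CPM in TDD mice. It was at 0.243, 0.264, 0.123, 0.156 and 0.207 CPM in CD+ABX mice and at 0.207, 0.260, 0.124, 0.179 and 1.58 CPM in TDD+ABX mice. These levels rest on 2 to 93 counts per mouse, and the low mice of the 4 groups overlapped. Ltb, which anchors the complex in the membrane, was at 1.57, 5.54, 7.26, 3.10 and 3.71 CPM in CD mice and at 1.93, 7.50, 6.01, 10.4 and 10.5 CPM in TDD mice. It was at 1.26, 1.34, 2.07, 1.81 and 1.75 CPM in CD+ABX mice and at 1.90, 2.90, 2.13, 1.45 and 7.85 CPM in TDD+ABX mice. CD mice 4 and 5 held more Ltb than any CD+ABX mouse while their Cxcl13 was close to that of CD+ABX mice. Ltbr, the receptor of the membrane complex of both chains, was at 104, 96.0, 95.2, 95.6 and 104 CPM in CD mice. In TDD mice it was at 110, 96.0, 96.2, 94.2 and 107 CPM. It was at 95.6, 99.7, 113, 100 and 117 CPM in CD+ABX mice and at 110, 110, 106, 116 and 105 CPM in TDD+ABX mice. The receptor thus spanned 1.24-fold over all mice, where Ltb spanned 8.32-fold and Cxcl13 15.2-fold.

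Ccl19, a T zone chemokine, was at 0.0276, 0.814, 2.11, 0.0229 and 0.0842 CPM in CD mice and at 0, 2.25, 1.26, 3.44 and 1.99 CPM in TDD mice. It was at 0.0662, 0, 0.0205, 0.0195 and 0.0566 CPM in CD+ABX mice and at 0.0413, 0.240, 0.0414, 0.0597 and 1.63 CPM in TDD+ABX mice. The 5 CD+ABX mice together held 8 counts, so differences among low mice were not detectable at this depth. Ccr7, the receptor of Ccl19 and Ccl21 on T cells, B cells and mature dendritic cells, was at 0.551, 1.30, 2.31, 0.390 and 0.211 CPM in CD mice and at 0.251, 2.87, 2.34, 3.25 and 3.72 CPM in TDD mice. It was at 0.309, 0.863, 0.369, 0.409 and 0.566 CPM in CD+ABX mice and at 0.682, 0.821, 0.6, 0.358 and 2.25 CPM in TDD+ABX mice. The low mice of all groups overlapped for Ccr7, and CD mouse 5 was the lowest. Ccl21a, made by reticular stroma and lymphatic endothelium, was at 28.7, 48.7, 39.8, 31.6 and 37.5 CPM in CD mice and at 16.9, 55.2, 45.8, 65.0 and 65.3 CPM in TDD mice. It was at 39.8, 29.1, 30.3, 35.9 and 21.9 CPM in CD+ABX mice and at 34.0, 39.7, 29.9, 17.7 and 47.5 CPM in TDD+ABX mice. Ccl21a was above 16 CPM in every mouse, including those in which Ccl19 was at 0. Reads of Ccl21a can be shared with near-identical copies, so its counts are uncertain.

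Cxcl12, a stromal chemokine, was at 32.0, 44.6, 35.8, 27.9 and 32.4 CPM in CD mice and at 26.1, 35.6, 28.4, 34.6 and 36.6 CPM in TDD mice. It was at 29.0, 25.3, 25.7, 24.9 and 18.0 CPM in CD+ABX mice and at 18.7, 23.5, 20.1, 20.7 and 29.9 CPM in TDD+ABX mice. Most ABX-treated mice lay below the SPF mice on the same diet, but the ranges overlapped on both diets. Cxcr4, its receptor on lymphocytes, was at 2.45, 4.86, 6.86, 2.71 and 2.55 CPM in CD mice and at 1.96, 7.04, 6.21, 9.83 and 8.07 CPM in TDD mice. It was at 1.61, 2.71, 1.76, 2.53 and 2.66 CPM in CD+ABX mice and at 2.77, 2.74, 2.79, 1.49 and 6.32 CPM in TDD+ABX mice. Cxcr4 was high in the mice in which Cxcr5 and Ccr7 were high, and its ligand was not restricted to them.

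Levels of different genes were compared per transcript length, as transcripts per 1000000 (TPM) summed over the transcripts of a gene. Group means were 69.9 to 80.5 TPM for Ltbr and 54.4 to 82.5 TPM for Ccl21a, and the ranges over mice of these 2 genes overlapped. Cxcl12 followed at 13 to 19.4 TPM, and its highest mouse, at 26.4 TPM, lay below the lowest mouse for Ccl21a, at 27.4 TPM. Then came Cxcl13 (1.44 to 10.7 TPM), Ltb (2.03 to 8.58 TPM) and Cxcr4 (1.85 to 5.21 TPM), whose ranges over mice overlapped with each other. The range of Cxcl12 over mice overlapped with those of Cxcl13 and Ltb. Ccl19 (0.0804 to 3.77 TPM), Cxcr5 (0.115 to 2.99 TPM), Ccr7 (0.350 to 1.67 TPM) and Lta (0.206 to 1.04 TPM) formed the low end, again with overlapping ranges. Ltbr, Ccl21a and Cxcl12 thus had the highest group means in every group.

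**Figure D2:**
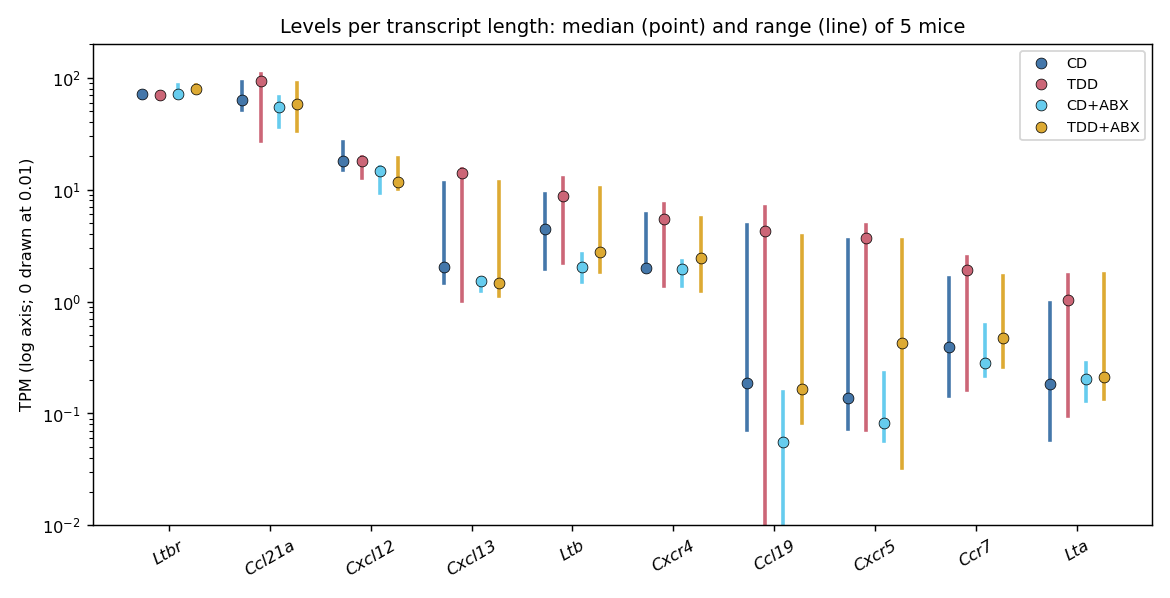
TPM of the 10 genes (vertical log axis, with 0 drawn at 0.01), ordered by mean level, in the 4 groups. Points are medians and lines run from the lowest to the highest of 5 mice. Ltbr lies within a narrow band near 69.9 to 80.5 TPM in the group means, while the line of Cxcr5 on TDD runs from 0.0715 to 4.86 TPM and that of Ccl19 from 0 to 7.05 TPM.

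TDD feeding of SPF mice was compared first. Group means were higher on TDD for 9 of the 10 genes, and the median log2 fold change of the members was 0.93, against 0.01 over all genes tested. Cxcl13 averaged 4.07 ± 3.79 CPM in the CD group and 8.69 ± 4.92 CPM in the TDD group (SD, n = 5 each; log2 fold change 1.09, 95% interval -0.43 to 2.61). For Lta the means were 0.411 ± 0.410 and 1.04 ± 0.677 CPM, for Ltb 4.23 ± 2.21 and 7.26 ± 3.54 CPM, and for Cxcr4 3.89 ± 1.94 and 6.62 ± 2.94 CPM (SD, n = 5 each). Each of these differences was within the spread between mice. By edgeR's quasi-likelihood test, 0 of the 10 genes were called at an adjusted p under 0.05 with at least a 2-fold change, where 1.83% of all genes were. Likewise 0 passed on the adjusted p alone, where 14.4% of all genes did, and 0 had groups that did not overlap, where 9.58% did. At an unadjusted p under 0.05 stood 1 of 10 members, against 28.4% of all genes. This was Ccr7, at 0.954 ± 0.867 and 2.49 ± 1.35 CPM (SD, n = 5; log2 fold change 1.37, standard error 0.63, adjusted p = 0.158, edgeR). DESeq2 called 0 members, with 2 at an unadjusted p under 0.05, and limma-voom called 0, with 0 at that level. An unadjusted p under 0.05 was reached by 5 of 10 members without TDD mouse 1 and by 6 without CD mouse 3 (edgeR). The share of all genes at that level was not taken in these fits, and most members moved together over the mice. In both fits 0 members were called, where 1.97% and 1.82% of all genes were. Ccr7 had an adjusted p = 0.0516 without TDD mouse 1 (edgeR). Ltbr (log2 fold change 0.02, 95% interval -0.10 to 0.15) and Cxcl12 (-0.10, -0.41 to 0.21) differed by less than 2-fold over their whole intervals.

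TDD feeding of ABX-treated mice gave the same order of means. These were higher on TDD for 9 of 10 genes, with a median log2 fold change of 0.93 against -0.003 over all genes. The differences of Cxcl13, Cxcr5, Lta, Ltb, Ccl19, Ccr7 and Cxcr4 were smaller when 1 mouse, TDD+ABX mouse 5, was left out, while that of Cxcl12 went from -0.12 to -0.24 on the log2 scale. Cxcl13 was at 1.12 ± 0.130 CPM in CD+ABX and 2.84 ± 3.26 CPM in TDD+ABX mice (SD, n = 5 each), with a log2 fold change of 1.33 that fell to 0.35 without that mouse. For Cxcr5 the log2 fold change was 2.80 (standard error 1.23, adjusted p = 0.29, edgeR) and 1.34 without it, and for Lta 1.21 and -0.03. By edgeR 0 of 10 members were called (0.307% of all genes), 0 passed on the adjusted p alone (1.64%) and 0 had groups that did not overlap (4.78%). Unadjusted, 2 of 10 had a p under 0.05, Cxcr5 and Ccl19, against 14.7% of all genes, and without TDD+ABX mouse 5 there were 0. DESeq2 and limma-voom each called 0 members, with 3 and 0 at an unadjusted p under 0.05.

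**Figure D3:**
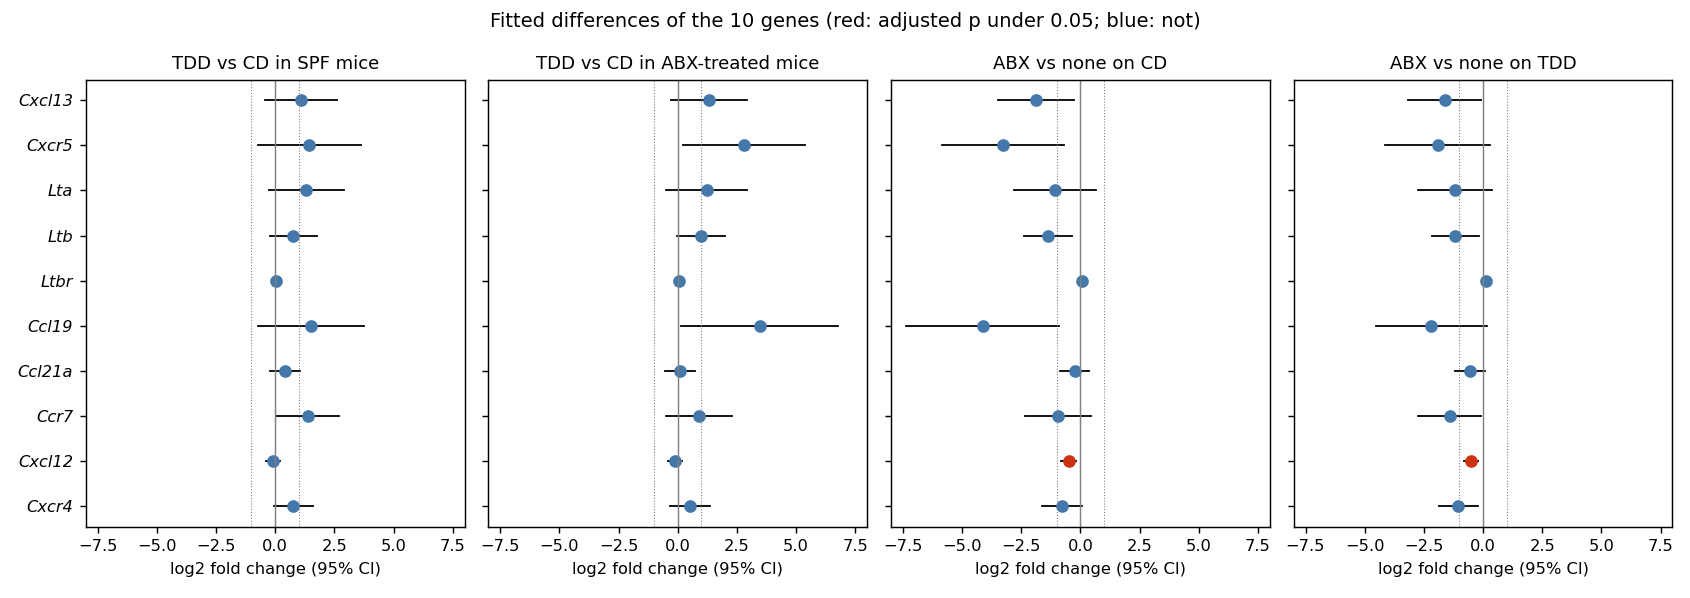
Log2 fold changes of the 10 genes (points, horizontal axis) with 95% intervals (lines) in the 4 comparisons, from edgeR's fit. Red points have an adjusted p under 0.05, and dotted lines mark a 2-fold change. Only Cxcl12 under ABX is red, at -0.49 on CD and -0.52 on TDD, and the intervals of Ccl19 and Cxcr5 are the widest.

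ABX treatment on CD went with lower Cxcl12, and with lower means of the other members apart from Ltbr. Cxcl12 was at 34.5 ± 6.29 CPM in CD and 24.6 ± 4.05 CPM in CD+ABX mice (SD, n = 5 each; log2 fold change -0.49, standard error 0.15, adjusted p = 0.0348, edgeR), which is less than a 2-fold change. Ltb was at 4.23 ± 2.21 and 1.65 ± 0.339 CPM (SD, n = 5 each; log2 fold change -1.36, adjusted p = 0.0742, edgeR), Cxcl13 at 4.07 ± 3.79 and 1.12 ± 0.130 CPM and Cxcr5 at 2.04 ± 2.72 and 0.214 ± 0.125 CPM. The SD of Ltb, Cxcl13 and Cxcr5 on CD reflects CD mice 2 and 3, which have no counterpart among CD+ABX mice. By edgeR 0 of 10 members were called (2.25% of all genes), 1 passed on the adjusted p alone (12.6% of all genes) and 0 had groups that did not overlap (9.74%). Unadjusted, 5 of 10 had a p under 0.05, namely Ccl19, Cxcl12, Cxcl13, Cxcr5 and Ltb, against 26.5% of all genes. DESeq2 called 3 members, Cxcr5, Ltb and Ccl19, where it called 2.49% of all genes, and limma-voom called 0, with 2 at an unadjusted p under 0.05. Ltb was called when CD mouse 1, TDD mouse 1 or TDD+ABX mouse 5 was left out and when only the 2 groups were fitted. The adjusted p of Cxcl12 lay between 0.0193 and 0.0888 over the fits that left out 1 mouse (edgeR).

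ABX treatment on TDD again went with lower Cxcl12, at 32.3 ± 4.69 CPM in TDD and 22.6 ± 4.46 CPM in TDD+ABX mice (SD, n = 5 each; log2 fold change -0.52, standard error 0.15, adjusted p = 0.0254, edgeR). Its adjusted p lay between 0.00671 and 0.0772 when 1 mouse was left out (edgeR). Cxcr4 was at 6.62 ± 2.94 and 3.22 ± 1.82 CPM (SD, n = 5 each; log2 fold change -1.04, adjusted p = 0.0826, edgeR), Ccr7 at 2.49 ± 1.35 and 0.942 ± 0.750 CPM and Ltb at 7.26 ± 3.54 and 3.25 ± 2.63 CPM. By edgeR 0 of 10 members were called (1.63% of all genes), 1 passed on the adjusted p alone (15.4%) and 0 had groups that did not overlap (11%). Unadjusted, 5 of 10 had a p under 0.05, namely Ccr7, Cxcl12, Cxcl13, Cxcr4 and Ltb, against 30.5% of all genes. DESeq2 called 1 member, Cxcr4, where it called 1.92% of all genes, and limma-voom called 0, with 4 at an unadjusted p under 0.05. Here 2 mice decided the calls. Without TDD+ABX mouse 5, 7 of 10 members were called lower with ABX (Cxcl13, Cxcr5, Lta, Ltb, Ccl19, Ccr7 and Cxcr4), where 2.58% of all genes were called in either direction. That mouse was the highest of the TDD+ABX group for each of these 7 genes, so leaving it out lowers that group by construction. The 7 genes also moved together over the mice, so their calls are not independent of each other. Without TDD mouse 1, 3 were called (Ltb, Ccr7 and Cxcr4), where 2.46% of all genes were. Cxcl13 had a log2 fold change of -1.62 with all mice and -2.58 without TDD+ABX mouse 5.

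The diet difference was compared between SPF and ABX-treated mice by the interaction term of the same fit. By edgeR 0 of 10 members were called, where 0.0245% of all genes were, and 0 had an unadjusted p under 0.05, where 8.87% did. Unadjusted p-values of the members ran from 0.33 to 0.931 in this edgeR fit, and DESeq2 and limma-voom called 0. The 2 comparisons of diet and the 2 comparisons of ABX share mice, so their values are given side by side and not as support for each other. The 95% interval of the interaction was -1.93 to 2.42 for Cxcl13 on the log2 scale and -0.14 to 0.21 for Ltbr, so differences of several fold in the diet effect on Cxcl13 could not be detected with these mice.

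Markers of B cells moved with the 7 genes that split the mice. All 10 markers on the list were detected (among them Ms4a1, Cd79a, Cd79b, Pax5, Cd22, Blk, Bank1, Fcmr and Fcrla) and none was at 0 in every mouse. Their summed level was 12.8, 92.4, 128, 10 and 10.7 CPM in CD mice 1 to 5 and 7.53, 137, 98.1, 203 and 165 CPM in TDD mice. It was 5.69, 12.8, 8.97, 7.73 and 12.7 CPM in CD+ABX mice and 17.1, 33.55, 10.2, 6.29 and 137 CPM in TDD+ABX mice. The 7 mice with the highest sums were the 7 mice in which Cxcl13, Cxcr5, Lta, Ltb, Ccl19, Ccr7 and Cxcr4 were highest, and TDD+ABX mouse 2 was next. Pearson's r with the log2 sum, after subtracting group means over 20 mice, was 0.99 for Cxcr5, 0.97 for Cxcl13, 0.96 for Ccr7, 0.95 for Cxcr4, 0.94 for Ccl19, 0.92 for Lta and 0.91 for Ltb. It was 0.78 for Ccl21a, 0.65 for Cxcl12 and -0.41 for Ltbr. Cxcr5 ranged from 0.949% to 4.94% of the B cell sum and Ccr7 from 1.41% to 6.74%, whereas Ltbr ranged from 46.3% to 1842%. B cell markers themselves were called in 0 of 10 cases by edgeR in each of the 5 comparisons, and at an unadjusted p under 0.05 stood 0 for TDD in SPF mice, 6 for TDD under ABX (14.7% of all genes), 10 for ABX on CD (26.5%), 1 for ABX on TDD (30.5%) and 0 for the interaction. Their median log2 fold changes in the first 4 comparisons were 1.30, 2.31, -2.84 and -1.60. The part of B cell number in the values of the members was not tested.

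**Figure D4:**
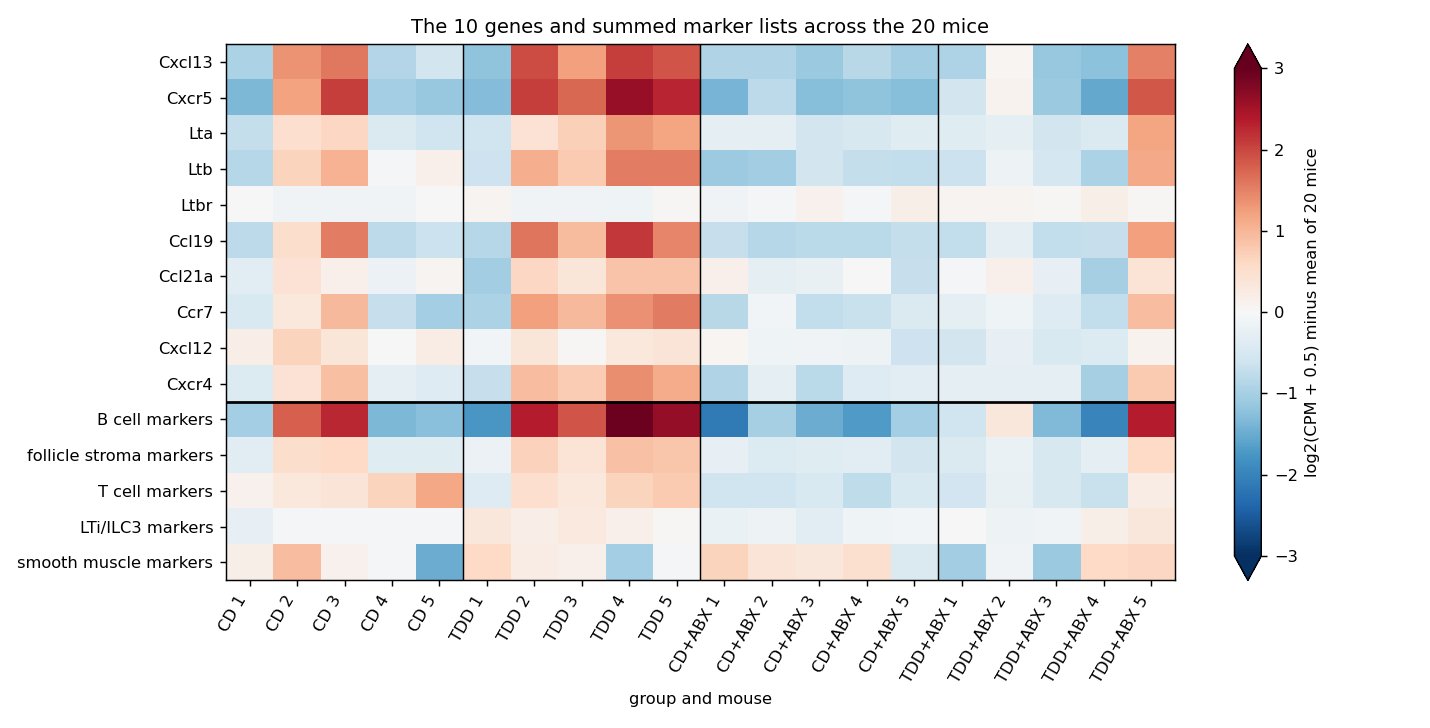
Log2(CPM + 0.5) of the 10 genes and of summed marker lists (rows), each minus its mean over 20 mice (color scale), in every mouse (columns, with lines between groups). Columns CD 2 and 3, TDD 2 to 5 and TDD+ABX 5 are red for Cxcl13, Cxcr5, Ccl19, Ccr7 and the B cell markers, whereas Ltbr and the smooth muscle markers do not share this pattern.

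Other cell types moved with the members to different degrees. The 8 markers of follicular dendritic cells and follicle stroma, among them Cr2 and Fcer2a, which B cells also express, summed to 87.3 to 171 CPM in CD, 99.2 to 205 CPM in TDD, 77.0 to 93.8 CPM in CD+ABX and 79.7 to 169 CPM in TDD+ABX mice. The r of that sum was 0.96 with Cxcl13 and 0.82 with Cxcl12. Germinal centre markers, 7 in number, summed to 35.9 to 53.2 CPM over all mice, with r of 0.64 with Cxcl13. With ABX on CD these markers went both ways, with 3 lower and 2 higher of 7 on the adjusted p alone (12.6% of all genes passed in either direction). Gcsam fell by 3.21 on the log2 scale, whereas the transcription factor Bcl6 rose by 0.49 and Rgs13 by 0.90 (adjusted p = 0.00607, 0.0102 and 0.00686, edgeR), all chosen after their values were seen. T cell markers summed to 46.4 to 95 CPM in CD, 32.25 to 72.6 CPM in TDD, 24.8 to 30.8 CPM in CD+ABX and 26.5 to 49.3 CPM in TDD+ABX mice. Of the 10 T cell markers, 6 were called lower with ABX on CD (2.25% of all genes called) and 3 on TDD (1.63%), among them Cd6, chosen after its values were seen (log2 fold change -2.50 and -1.18, adjusted p = 0.000559 and 0.0353, edgeR). LTi and group 3 innate lymphoid markers, such as Kit, summed to 71.3 to 113 CPM and had r between -0.24 and 0.22 with the 10 genes. Markers of mature dendritic cells had r of 0.91 with Ccr7 and 0.92 with Cxcl13, and their sums reached 33.0 CPM in CD, 37.7 CPM in TDD, 19.8 CPM in CD+ABX and 30.5 CPM in TDD+ABX mice. Markers of smooth muscle and of mesenteric fat had r between -0.124 and 0.435 and between -0.473 and 0.264 with the members. The fat sum had a median of 49.1 CPM in CD+ABX and 51.0 CPM in TDD+ABX mice. The median log2 fold change of its 5 markers was -2.82 there, and only 1, Cidec, was higher on TDD (0.33), with 0 called. This sum thus did not follow most of its markers and is a poor gauge of fat in the piece. The fibroblast and reticular stroma markers had r of 0.73 with Cxcl12. Follicle-associated epithelium and M cell markers had r of 0.633 to 0.839 with the 9 members other than Ltbr, and the endothelial markers had r of 0.787 with Ccl21a. Plasma cell markers had r of -0.107 to 0.56 with the members. Enterocyte markers had r of -0.728 with Cxcl12, the only member with an adjusted p under 0.05. What these cell types add to the members' values was not tested.

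**Figure D5:**
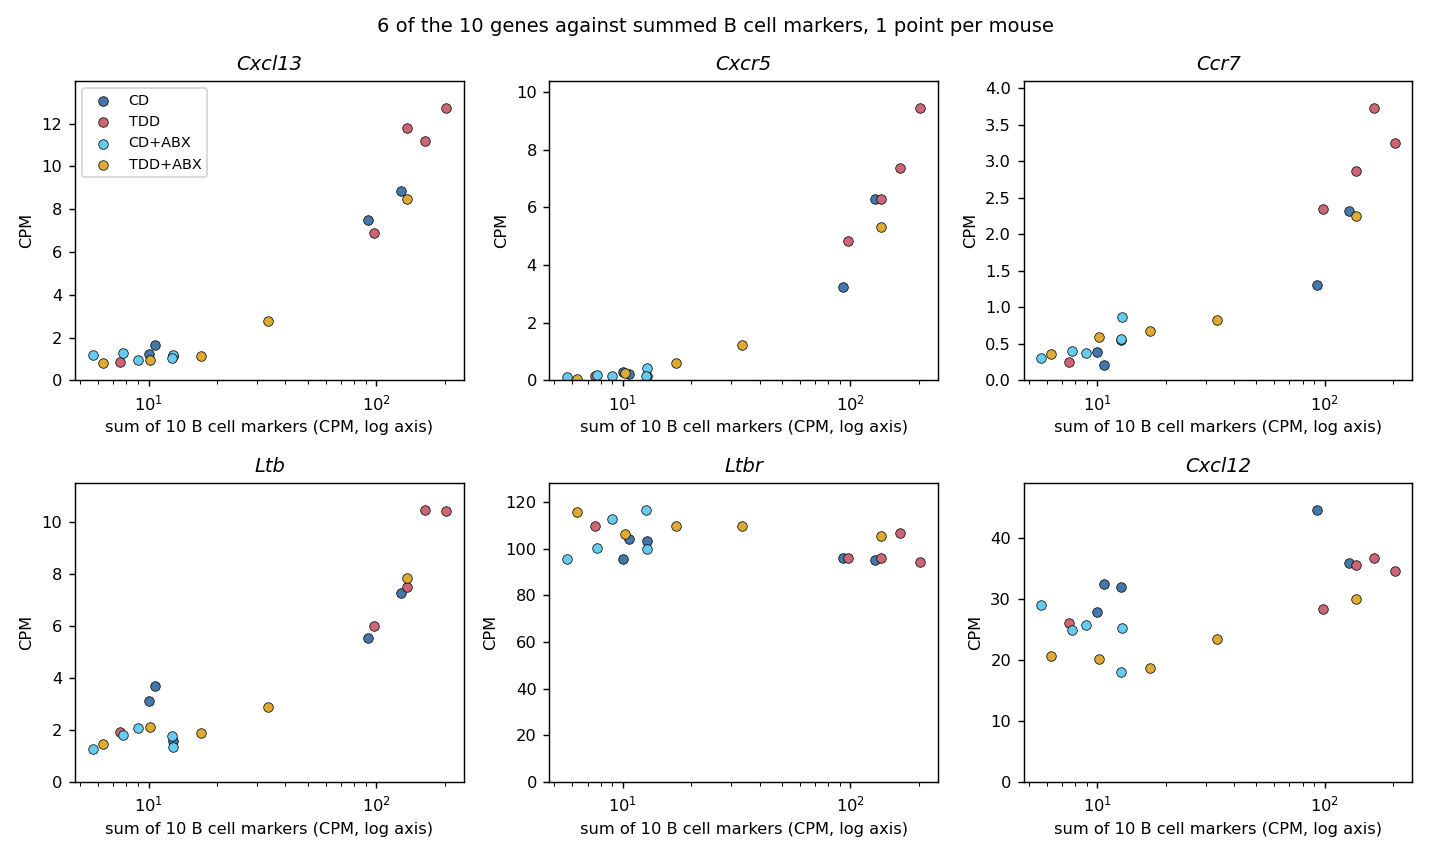
CPM of 6 of the 10 genes (vertical axes) against the summed CPM of 10 B cell markers (horizontal log axes), 1 point per mouse, colored by group. Cxcl13, Cxcr5, Ccr7 and Ltb stay low up to a sum near 12.8 CPM and are highest where the sum is between 92.4 and 203 CPM, while Ltbr is level and Cxcl12 overlaps along the axis.

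For each member the genes with the most similar deviations from the group means over the 20 mice were listed, up to 3 each, among about 14047 genes with a mean of at least 1 CPM. For Cxcl13 they were Tnfrsf13c, Siglecg and H2-DMb2 (r = 0.99 each), for Cxcr5 Fcmr, Ms4a1 and Siglecg (0.99 each) and for Lta Bank1, Dennd4b and Il4i1 (0.96 each). For Ltb they were Cd37, Carmil2 and Arhgap4 (0.98, 0.96 and 0.96), for Ccl19 Fcrl1, Cacna1i and Tnfrsf13c (0.97 each), for Ccr7 Fcrla and Cnr2 (0.97 each) and for Cxcr4 Btk and Tnfrsf13b (0.97 each). The 3 members with another pattern had other neighbours and lower values. For Ccl21a these were Myo1g and H2-Aa (0.91 each), for Cxcl12 C4b, Ehd3 and Rasa3 (0.93, 0.92 and 0.91) and for Ltbr Otub1, Mapkapk2 and Mief2 (0.88, 0.83 and 0.82).

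Each gene's value came mainly from 1 transcript where the counts were sufficient. Cxcl13, Lta, Ccl21a and Ccr7 had 1 annotated transcript each. Ltbr drew 89.0% to 91.8% of its TPM from its protein-coding transcript in the group means, and the rest from 2 short transcripts with a retained intron. Ltb drew 83.4% to 88.1% from its main protein-coding transcript and 11.7% to 13.2% from one with a retained intron. Cxcl12 drew 76.0% to 77.4% from a protein-coding transcript of 1878 bases, 10.1% to 11.4% from one of 5627 bases, 8.04% to 8.97% from one of 3132 bases and the rest from one with a retained intron. These shares moved by less than 2 percentage points between groups for the 3 coding forms. Cxcr4 drew 83.8% to 95.6% from its main transcript, whereas the low counts of Cxcr5 and Ccl19 in low mice left their shares poorly measured, with single mice at 0% and at 100%. Of 24 transcripts, 18 passed the filter and 0 were called in any comparison (edgeR, adjusted over 51522 transcripts), where 1.76% of all transcripts were called in at least 1 comparison. At an unadjusted p under 0.05 in at least 1 comparison stood 10 of the 18, against 35% of all transcripts. On the adjusted p alone, 1 passed (7.11% of all transcripts in at least 1 comparison), the Cxcl12 form of 5627 bases, which was lower with ABX on CD (log2 fold change -0.62, adjusted p = 0.0318, edgeR) and on TDD (-0.57, adjusted p = 0.0496).

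Of 40 other genes of the pathway, 39 were tested (Ccl21c was too low), and 3 were called in any of the 5 comparisons. In at least 1 comparison 4.34% of all genes were called. In SPF mice 1 of 39 was called lower on TDD and 0 higher (1.83% of all genes). With ABX, 3 of 39 were called lower on CD (2.25% of all genes) and 0 on TDD (1.63%). Cxcr6, the receptor of Cxcl16 on activated T cells and innate lymphoid cells, was at 5 ± 2.61 CPM in CD, 2.49 ± 0.436 CPM in TDD, 2.13 ± 0.157 CPM in CD+ABX and 1.98 ± 0.384 CPM in TDD+ABX mice (SD, n = 5 each). It was thus lower on TDD (log2 fold change -1.003, standard error 0.25, adjusted p = 0.0109, edgeR) and lower with ABX on CD (-1.23, standard error 0.25, adjusted p = 0.00374). Itgb7, the beta chain of gut-homing integrins, was at 10.6 ± 3.98 CPM in CD and 4.69 ± 0.519 CPM in CD+ABX mice (SD, n = 5 each; log2 fold change -1.17, standard error 0.27, adjusted p = 0.00828, edgeR). Glycam1, a glycoprotein of high endothelial venules, held 120 counts in CD mice, all in CD mice 2 and 3, and 1 count in CD+ABX mice (ratio 0.00765, 95% counting interval 0.000192 to 0.0434; adjusted p = 0.0484, edgeR). In TDD mice it held 278 counts, and TDD mouse 1 was at 0. Glycam1 therefore followed the same mice as Cxcl13.

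On the adjusted p alone, further genes of the pathway changed by less than 2-fold, and the 4 described here were chosen after their values were seen. By that rule, 4 of the 39 were higher and 3 lower on TDD in SPF mice (14.4% of all genes in either direction). Under ABX, 0 were higher and 2 lower on TDD (1.64%). With ABX, 1 was higher and 8 lower on CD (12.6%), and 1 was higher and 11 lower on TDD (15.4%). These counts include the genes called above. Among the genes of lymphotoxin receptor signaling, Birc3 is an inhibitor of apoptosis that keeps the NF-kB inducing kinase in check. It was at 39.0 ± 3.83 CPM in CD and 65.3 ± 5.96 CPM in TDD mice (SD, n = 5 each; log2 fold change 0.75, adjusted p = 1.04e-05, edgeR). Birc3 had no overlap between these groups, where 9.58% of all genes had none. With ABX it was at 33.4 ± 3.01 and 41.0 ± 1.97 CPM (SD, n = 5 each), and it fell with ABX on TDD by 0.67 on the log2 scale (adjusted p = 0.000215, edgeR). Map3k14, that kinase, fell with ABX by 0.38 on CD and by 0.29 on TDD (adjusted p = 0.01 and 0.0346, edgeR). Tnfrsf11a, the receptor RANK, was at 48.3 ± 4.41 CPM in CD and 28.1 ± 3.64 CPM in TDD mice (SD, n = 5 each; log2 fold change -0.79, adjusted p = 1.5e-05, edgeR). It also fell on TDD among ABX-treated mice, by 0.41 on the log2 scale (adjusted p = 0.0185, edgeR). Icam1, an adhesion molecule of endothelium and stroma, fell with ABX by 0.72 on CD and by 0.73 on TDD (adjusted p = 0.0115 and 0.0102, edgeR). The median log2 fold change of the 39 genes was 0.13 for TDD without ABX, 0.10 for TDD under ABX, -0.36 for ABX on CD and -0.33 for ABX on TDD.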

How the data were processed

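Poly-A RNA of 1 piece of ileum from each of 20 mice was sequenced and quantified by the authors with kallisto 0.44.0 on the mouse GRCm38 transcriptome. The deposited files hold estimated counts per gene for the whole series, already rounded to whole numbers by the authors, and, for each mouse, estimated counts and TPM per transcript, where TPM was computed by the authors' kallisto run as transcripts per 1000000. A further deposited table repeats these TPM values and was not used. The 10 genes, marker lists and pathway lists were chosen with earlier results of these data known.

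Gene counts were scaled by TMM and tested with edgeR 4.0.16 (robust quasi-likelihood fit over all 4 groups, R 4.3.3). Genes had to reach 0.5 CPM in 1 or more mice, p-values were adjusted over all of them by Benjamini-Hochberg, and a call needed an adjusted p under 0.05 with at least a 2-fold change. Tests were two-sided. Named genes were all 10 members, the pathway genes called and up to 3 genes most like each member by Pearson's r (some are not reported here), and others are said to be chosen after their values were seen. Total counts were 36676963 to 58662617 per mouse, and counting intervals and floors cover counting error only. Alternatives used other scalings, filters, DESeq2 1.42.0, limma 3.58.1 (voom, and log2 of TPM plus 1 or 0.1), fewer groups, a replicate block and leaving out each mouse. Summing the Ccl21 copies was chosen after seeing the data. Promoter sequences are from RefSeq (GRCm38.p6), and fits were tested on simulated data.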

Additional observations from a re-analysis of the deposited data

Results flagged for a closer look

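Dixon's 95% limit for 5 mice is a gap to the next mouse of 0.71 of the group's range. For normally distributed values, chance passes this limit in about 1 in 20 groups. The gaps were taken on untransformed CPM, for which that rate may not hold. Of 40 groups of 5 mice (10 genes in 4 groups), 8 held a mouse whose gap exceeded the limit. In 7 of them this was TDD+ABX mouse 5, and the 7 genes are not independent, since they moved together over the mice. It held 8.50 CPM of Cxcl13 (next mouse 2.78), 5.34 CPM of Cxcr5 (next 1.24), 1.58 CPM of Lta (next 0.260) and 7.85 CPM of Ltb (next 2.90). It also held 1.63 CPM of Ccl19 (next 0.240), 2.25 CPM of Ccr7 (next 0.821) and 6.32 CPM of Cxcr4 (next 2.79). The summed B cell markers of this mouse were at 137 CPM, where the next TDD+ABX mouse was at 33.55 CPM, and the part of B cells in these values was not tested. The other was CD+ABX mouse 2, with 0.432 CPM of Cxcr5 where the next mouse had 0.195 CPM.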

How the results depend on the processing

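The number of members called was 0 in every comparison and stayed 0 for both diet comparisons and the interaction under all alternatives run. For ABX on CD it was 1 on the adjusted p alone, 3 by DESeq2, 1 with only the 2 groups fitted, and 0 to 1 when a mouse was left out. For ABX on TDD it was 1 on the adjusted p alone, 1 by DESeq2, and 0 to 7 when a mouse was left out. Other pathway genes called in any comparison went from 3 to 18 of 39 without the 2-fold limit, where all genes went from 4.34% to 30.2%. The replicate block gave 0 members called in each comparison. Deviations of same-numbered mice had r from -0.417 to 0.289 over 30 pairs, with 5 over 0.1. Differently numbered mice were not compared, so these values cannot decide whether mouse numbers pair the samples. Some log2 fold changes reversed, including interactions of 1.35 for Cxcr5 and 1.94 for Ccl19. Ltbr on TDD in SPF mice was -0.0146 with log2(TPM + 1) and -0.0148 with log2(TPM + 0.1). The interaction reversed for Cxcl13 (-0.53), Cxcr5 (-0.60) and Ltb (-0.0582) by limma-voom, for Cxcl13 (-0.36), Cxcr5 (-0.39), Ccl19 (-0.49) and Cxcl12 (0.0688) with TPM + 1, for Cxcl13 (-0.37), Cxcr5 (-0.43), Ccl19 (-0.28) and Cxcl12 (0.0700) with TPM + 0.1, and for Cxcl13 (-0.13) with the replicate block. With 1 mouse left out, the interaction ran from -0.0346 to 2.31 for Ccl19, -0.13 to 0.0515 for Cxcl12, -0.73 to 0.49 for Cxcl13, -0.0932 to 1.74 for Cxcr5, -1.34 to 0.17 for Lta and -0.42 to 0.40 for Ltb. The diet difference with ABX then ran from -0.0464 to 0.27 for Ccl21a and -0.0326 to 1.45 for Lta, and in SPF mice from -0.17 to 0.00133 for Cxcl12 and -0.00865 to 0.0469 for Ltbr. The cause was not tested. Depth limits Ccl19 and Lta, which rest on few counts in low mice.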

Other observations

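Near-identical copies of Ccl21a were counted as genes of their own. Ccl21b was at 0.248 to 8.25 CPM in CD, 0.0502 to 5.20 CPM in TDD, 0.288 to 11.5 CPM in CD+ABX and 0.438 to 11.5 CPM in TDD+ABX mice. Gm21541 was under 0.1 CPM in 6 of the 20 mice and between 3.74 and 11.2 CPM in the others. Summed with its copies, Ccl21a differed by 0.17 on the log2 scale on TDD in SPF mice (adjusted p = 0.729, edgeR) and by -0.36 with ABX on TDD (adjusted p = 0.387, edgeR), without a change of sign or call in the 5 comparisons.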
